A study of Mus musculus with 3 samples.

Results

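The genes that license replication origins, together with the sliding clamp gene Pcna, were examined in normal mouse thymocytes. The set held the 6 genes of the replicative helicase (Mcm2 to Mcm7), Mcm10, the loading factors Cdc6 and Cdt1, and Pcna. Members were the probe sets whose array annotation gave exactly 1 gene symbol equal to one of these names. All 10 genes were found, with 11 probe sets, out of 19938 genes with a probe set of their own. Thymocytes of 3 wt mice, numbered 92, 103 and 106, on a mixed FVB and C57BL6 background, were each hybridised to an Affymetrix MoGene-1_0-st-v1 array, on which many short probes read 1 transcript. The study set such normal thymocytes beside invasive T cell lymphomas, which were not analysed here. The labels enter T cell lymphoma as the disease state of these 3 samples too, against their wt titles and genotypes, and give an RNA input of 0.3 µg and a RIN, the integrity score of the RNA, of 3. They describe no sorting, so each sample may hold thymocytes of all stages and of all phases of the cell cycle, and no age is given. In such bulk samples, fewer cells of a kind and less RNA per cell cannot be told apart.

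Origins are licensed in G1 of the cell cycle. The origin recognition complex binds DNA, CDC6 and CDT1 join it, and together they load the MCM2-7 hexamer as an inactive double ring. In S phase the ring is activated by CDC45 and the GINS complex with the help of MCM10, and PCNA then encircles the new DNA and tethers polymerases and repair enzymes to it. Further loading is blocked after G1 by geminin, which binds CDT1, and by PCNA-dependent destruction of CDT1. In the thymus, immature double-negative cells and early double-positive blasts divide rapidly, whereas most double-positive cells are small and out of cycle. Genes of this set are known targets of E2F transcription factors, whose activating members switch them on at the G1 to S transition.

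The promoters of the set were compared for the E2F core, because the genes are known as E2F targets. RefSeq promoter windows of build GRCm38.p6, from 250 bases before to 50 bases after the gene start, were found for 9 of the 10 members. Mcm4 was not matched, and Mcm7 had a pair of windows. Letters searched on both strands were TTGGCGC or TTCCCGC or TTCGCGC or TTGCCGC for the E2F core, CCAAT for the CCAAT box and TTTGAA for the cell cycle genes homology region (CHR). Matches may overlap, within the E2F letters and between the E2F core and the CCAAT box. The 250 bases before the start are shown for the members with the largest ranges between mice (Mcm5 and Cdc6), for the helicase gene with the most E2F letters (Mcm6) and for Pcna, which had the opposite order of mice. They run 5′ to 3′ along the gene, and capitals mark matches.
Mcm5 (chr8:75109259-75109508, plus strand): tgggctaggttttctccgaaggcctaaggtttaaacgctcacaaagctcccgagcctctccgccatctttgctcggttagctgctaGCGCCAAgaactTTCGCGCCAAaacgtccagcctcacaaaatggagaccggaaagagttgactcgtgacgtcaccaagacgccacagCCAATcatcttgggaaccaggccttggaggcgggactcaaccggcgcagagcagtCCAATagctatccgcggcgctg
Cdc6 (chr11:98907901-98908150, plus strand): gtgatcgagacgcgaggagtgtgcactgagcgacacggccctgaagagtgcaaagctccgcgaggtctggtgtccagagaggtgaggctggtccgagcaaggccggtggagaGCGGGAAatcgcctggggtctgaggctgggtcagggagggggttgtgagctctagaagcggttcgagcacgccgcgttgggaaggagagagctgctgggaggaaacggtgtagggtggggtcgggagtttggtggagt
Mcm6 (chr1:128359706-128359955, minus strand): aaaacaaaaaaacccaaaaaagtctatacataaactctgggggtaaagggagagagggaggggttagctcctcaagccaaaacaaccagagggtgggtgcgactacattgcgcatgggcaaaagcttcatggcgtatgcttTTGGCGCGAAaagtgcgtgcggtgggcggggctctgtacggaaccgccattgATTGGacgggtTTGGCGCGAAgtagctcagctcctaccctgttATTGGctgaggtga
Pcna (chr2:132253181-132253430, minus strand): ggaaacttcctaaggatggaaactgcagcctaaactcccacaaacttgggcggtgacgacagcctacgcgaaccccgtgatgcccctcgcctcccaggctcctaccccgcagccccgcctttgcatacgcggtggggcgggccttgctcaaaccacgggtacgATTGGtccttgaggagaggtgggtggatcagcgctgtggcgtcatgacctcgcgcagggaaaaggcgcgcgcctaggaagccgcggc

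The E2F core was present in the windows of 6 of the 9 members (Mcm3, Mcm5, Mcm6, Mcm7, Cdc6 and Cdt1). It was present in 9.57% of all 32851 windows in the table and in 15.9% of the windows of genes tested below. Mcm6 held the run TTGGCGCGAA at 109 bases and again at 46 bases before its start, and Mcm5 held the same letters on the other strand, as TTCGCGCCAA, at 152 bases before its start. Mcm7 held TTCGCGCCAA at 17 bases after its upstream start, and 0.07% of all windows held this run on either strand. These longer runs were picked out after the sequences were seen. In Cdt1 and Mcm3 every E2F match lay after the start, at 18 and 33 bases and at 19, 39 and 42 bases. CCAAT occurred in 7 of the 9 members, against 37.4% of all windows, and the CHR letters in 1 (Mcm2), against 17.9%. The windows of Pcna, Mcm2 and Mcm10 held none of the E2F letters searched, which says nothing about E2F outside these letters and windows.

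**Figure D1:**
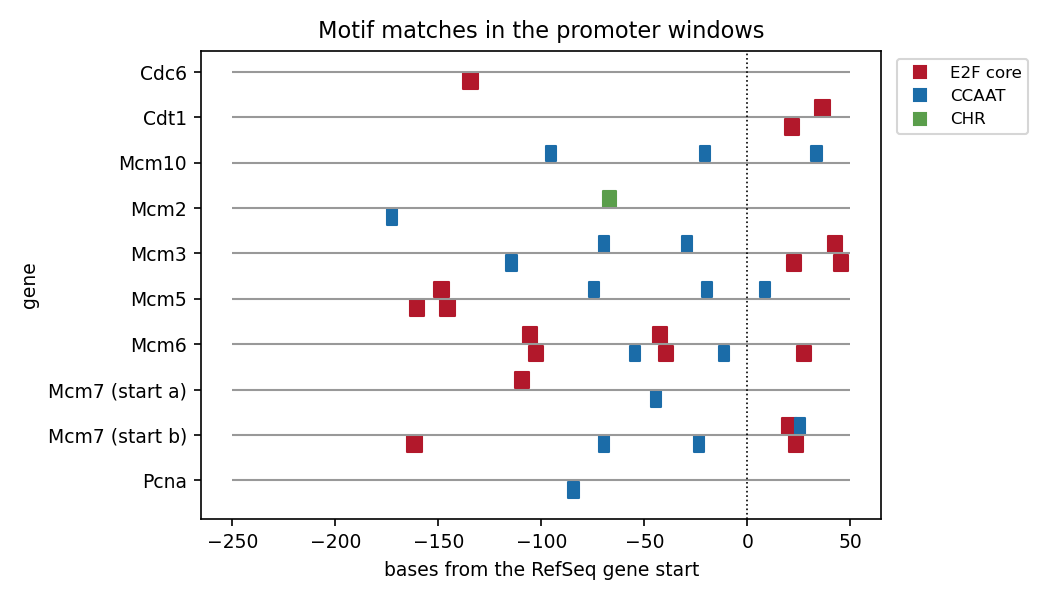
Matches of the E2F core, CCAAT and CHR letters in the promoter windows of 9 members, against the distance from the RefSeq gene start in bases; boxes above a line lie on the gene's strand and boxes below it on the other strand. Of the 9 genes, 6 hold an E2F core in the window, and the windows of Pcna, Mcm2 and Mcm10 hold none; Mcm7 has a pair of annotated starts.

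All 10 members were transcribed above background in every mouse. Background was the 95th percentile of 1207 olfactory, vomeronasal and trace amine receptor genes on each array, and the thresholds lay between 5.91 and 6.10 as log2 levels. Of all named genes, 61.8% passed on each of the 3 arrays. The lowest single value of a member was that of Mcm10, 8.15 in mouse 92. All levels given are log2 levels as deposited. Probes differ in affinity, so levels were compared between mice within a gene and not between genes.

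The array of mouse 92 stood apart from the others. Among the 13314 genes that exceeded background on 1 array or more, the log2 difference was 1 or more for 52 genes between mice 106 and 92 and for 73 between mice 103 and 92, but for 20 between mice 106 and 103. Xist, the RNA of the inactive X chromosome, was at 5.30, 11.85 and 11.67 in mice 92, 103 and 106, and the Y-linked gene Eif2s3y at 10.42, 3.59 and 3.55. A difference between mouse 92 and the others therefore cannot be told apart from a difference of sex. Thymocyte markers were above background in 11 of 11 measured genes, among them Rag1 (13.81, 13.38 and 13.58), Cd3g (13.33, 13.30 and 13.25) and Cd8a (13.24, 13.18 and 13.22 in mice 92, 103 and 106).

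Among the 6 helicase genes, Mcm5 differed most between mice and Mcm4 least. Mcm5 was at 9.80, 10.27 and 10.34 in mice 92, 103 and 106. The array of mouse 92 was low and the others lay close together, a range of 1.45-fold (0.54 on the log2 scale, mean 10.14 ± 0.29, SD, n = 3). Mcm2, which carries a histone-binding tail, was at 10.62, 10.97 and 10.92, again low in mouse 92, over a range of 1.28-fold. Mcm4 was at 10.08, 10.04 and 10.02, a range of 1.04-fold (SD 0.03, n = 3), and its SD was lower than that of all but 2.87% of the genes tested. The order of mice for Mcm4 is not settled: it was highest in mouse 92 as deposited, and lowest there after quantile normalisation (deviation -0.03) and cyclic loess (deviation -0.02).

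The other helicase genes lay between these extremes and were also lowest in mouse 92. Mcm3 was at 10.18, 10.37 and 10.37 in mice 92, 103 and 106, so that mice 103 and 106 differed by 0.01 on the log2 scale. Mcm6 was at 10.37, 10.48 and 10.65, with mouse 103 between the others. Mcm7 was at 10.71, 10.84 and 10.80, a range of 1.10-fold. The 6 proteins form 1 ring, but the measured deviations of their transcripts were unequal. The deviation in mouse 92 from the gene's own 3-mouse mean ran from -0.34 for Mcm5 to 0.03 for Mcm4.

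Cdc6 and Mcm10 were low in mouse 92, and Cdt1 was high in mouse 106. Cdc6, the ATPase that recruits the helicase, was at 8.25, 8.67 and 8.76 in mice 92, 103 and 106, a range of 1.42-fold (mean 8.56 ± 0.27, SD, n = 3). Its partner Cdt1 was at 9.44, 9.45 and 9.65: here mouse 106 was high, and mice 92 and 103 differed by 0.01. Mcm10, which acts at helicase activation, was at 8.15, 8.40 and 8.39, low in mouse 92 alone.

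Pcna had the opposite order to Cdc6. It was at 12.43, 12.30 and 12.12 in mice 92, 103 and 106, a range of 1.24-fold (mean 12.28 ± 0.16, SD, n = 3). Pcna was read by a pair of probe sets, at 12.43, 12.30 and 12.13 and at 12.42, 12.30 and 12.10, and the annotation gives both the same 4 accessions. RefSeq lists the pseudogenes Pcna-ps1 and Pcna-ps2, so signal shared with near-identical copies is possible, and the probe sets are not independent readings. Pcna was highest in mouse 92 and lowest in mouse 106 under each of the 3 other normalisations as well.

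**Figure D2:**
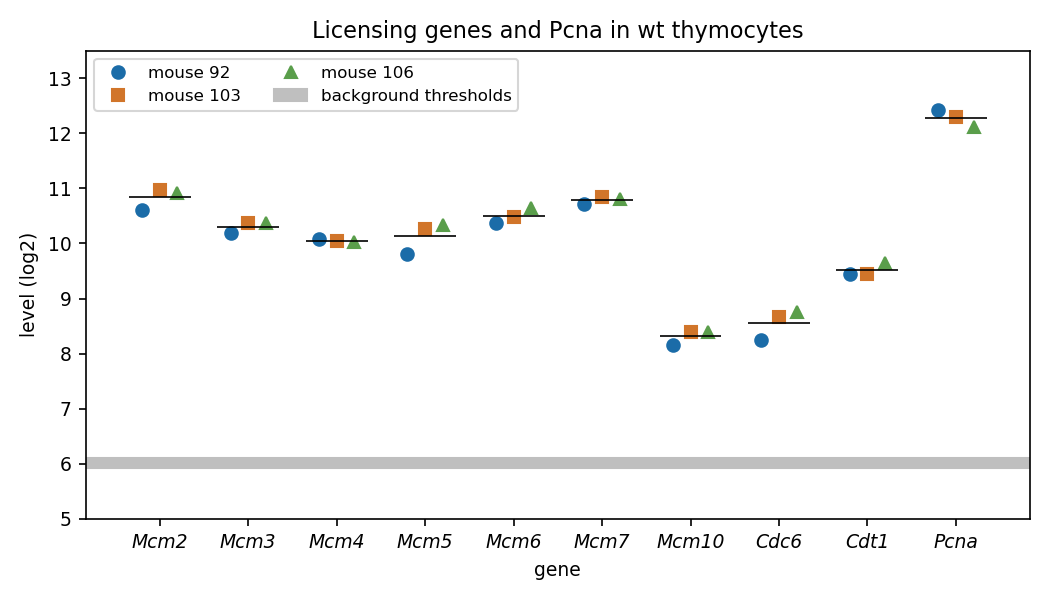
Log2 level of each member on the array of mouse 92, 103 and 106 (points), with the mean of the 3 mice (line) and the span of the background thresholds (grey band, 5.91 to 6.10). All values lie above the band, and levels of different genes are not comparable because probes differ in affinity.

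Taken by mouse, 8 of 10 members were lowest in mouse 92, 0 in mouse 103 and 2 (Mcm4 and Pcna) in mouse 106. Among all tested genes the shares lowest in mice 92, 103 and 106 were 35.1%, 28.3% and 36.6%. The 5965 tested genes whose mean level lay within the members' span, a set added after the values were seen, were lowest in mouse 92 in 23.1% of cases and highest there in 51.1%. The highest level was in mouse 106 for 5 members, in mouse 103 for 3 and in mouse 92 for 2, against 23.5%, 39.1% and 37.4% of all tested genes. The mean deviation of the 10 members was -0.13, 0.05 and 0.07 in mice 92, 103 and 106, where the median of all tested genes was 0.00, 0.02 and -0.02. Without Pcna it was -0.16, 0.05 and 0.10. The members were chosen with results of these data known, and they are not replicates of each other, so the counts describe these 3 mice and no test is attached to them.

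Set pair by pair, 8 of 10 members were higher in mouse 106 than in mouse 92, with a median log2 difference of 0.23, while 45.7% of all tested genes were higher and their median was -0.02. Likewise 8 of 10 were higher in mouse 103 than in mouse 92 (median 0.16, against 0.01 over all tested genes, of which 52.0% were higher). Between mice 106 and 103, 5 of 10 were higher in mouse 106 (median -0.00), against 41.3% of all tested genes. The low values of mouse 92 thus made up most of the spread of Mcm2, Mcm3, Mcm5, Mcm10 and Cdc6, and without that mouse the range of Mcm5 was 0.07 and that of Cdc6 0.09.

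**Figure D3:**
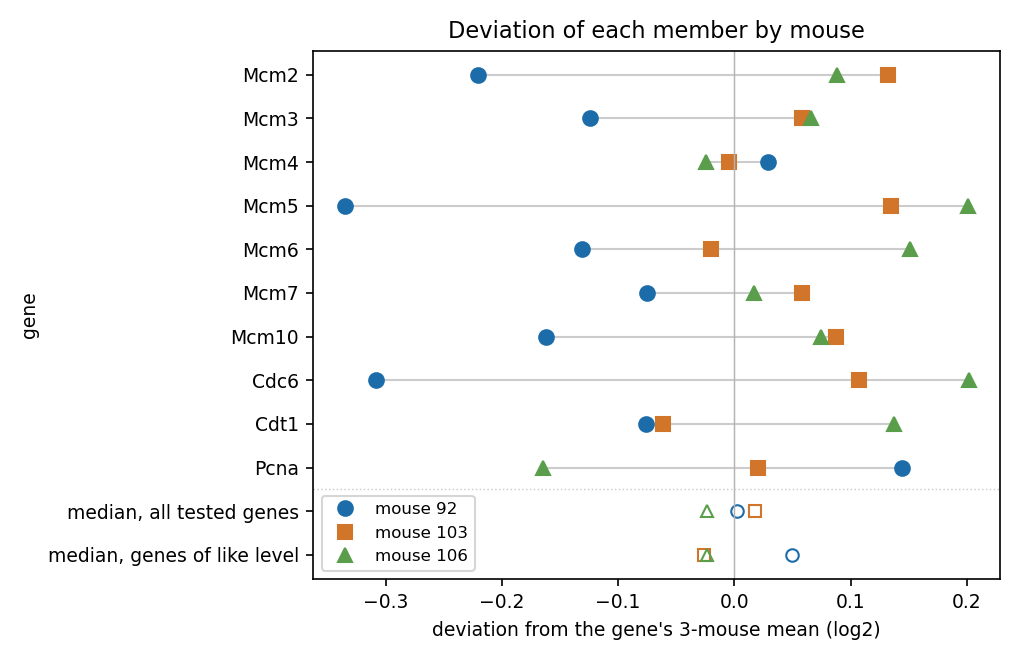
Deviation of each member from its own 3-mouse mean on the log2 scale (filled points), with the median deviation of all 13314 tested genes and of the 5965 genes of like level (open points). Mouse 92 lies left of both others for 8 members, Mcm4 is nearly flat, and Pcna runs the other way.

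The spread of each member over the 3 mice was tested with limma, as the gene's variance over a prior variance that follows level. That prior was fitted to all tested genes on the same 3 arrays. The test therefore asks whether a gene spread more than is usual at its level, not whether the mice were equal. None of the 10 members passed (0 of 10, Benjamini-Hochberg adjusted over 13314 genes), against 30 of 13314 genes, or 0.225%. Without mouse 92, 103 or 106, 58, 48 and 84 genes passed, and 0 members in each case. At an unadjusted p under 0.05 there was 1 member, Mcm5 (SD 0.29 against a prior SD of 0.14, unadjusted p = 0.0469, adjusted p = 0.996, limma), against 4.84% of all tested genes. Cdc6 had an unadjusted p of 0.0766 and Mcm2 of 0.199 (adjusted p = 0.996 for each, limma). The other members had adjusted p-values from 0.996 to 0.998. A range of at least 0.5 on the log2 scale was reached by Mcm5 and Cdc6, 2 of 10, against 1335 of all tested genes, or 10%, and by 0 without mouse 92 and 0 without mouse 106. The smallest SD among the 30 genes that passed was 0.76, above that of every member, so with 3 arrays differences of the members' size were not detectable by this test, and equality of the mice is not shown.

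**Figure D4:**
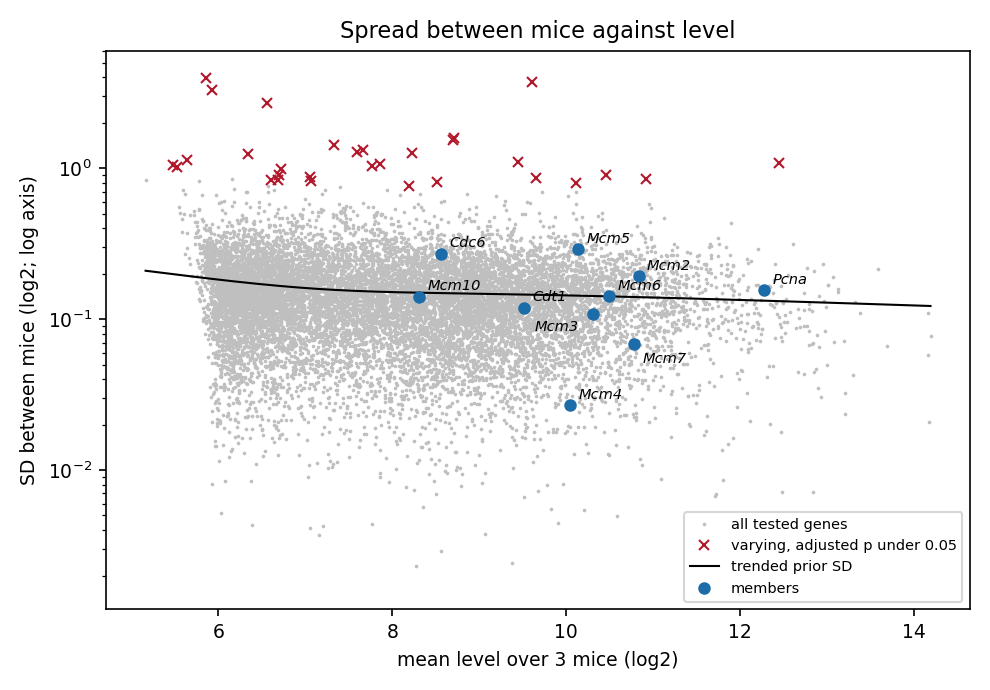
SD between the 3 mice (log2, log axis) against mean level for 13314 tested genes (grey), the 30 genes that passed the limma variance test (crosses), the trended prior SD (line) and the 10 members (blue). The members' SDs run from 0.03 (Mcm4) to 0.29 (Mcm5), and all lie below those of the genes that passed.

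The wider replication machinery was read from 8 lists with 94 measured genes, all 94 above background in every mouse and 0 called varying by limma (3 at an unadjusted p under 0.05: E2f8, E2f1 and Rpa3). Over these lists 34.0% of genes were lowest in mouse 92, against 35.1% of all tested genes and 23.1% of the genes of like level. In mouse 103 the lists had 46.8% of their lowest levels, against 28.3% of all tested genes and 38.2% of those of like level. In mouse 106 they had 19.1%, against 36.6% and 38.7%.

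In the list of origin recognition and licensing control, 11 of 19 genes were highest in mouse 92 and 3 were lowest there. Of all tested genes 37.4% were highest in mouse 92, and of the genes of like level 51.1%. All 6 genes of the origin recognition complex, which marks origins before the helicase is loaded, were highest in mouse 92 as deposited and after median centring, and 5 of 6 after quantile normalisation or cyclic loess, a count picked out after the values were seen. Orc4 was at 9.73, 9.17 and 9.44 in mice 92, 103 and 106, Orc3 at 9.92, 9.70 and 9.52, and the ubiquitin ligase scaffold Cul4b at 9.64, 9.16 and 9.21. Geminin (Gmnn), the inhibitor of CDT1, was at 6.61, 6.49 and 6.77, with mouse 106 highest as for Cdt1. Dtl, which delivers CDT1 to its ubiquitin ligase, was at 8.75, 8.80 and 9.03, and ranked the mice as Cdt1 did. Orc6 and Kat7, the acetyltransferase of licensed origins, were nearly level (ranges 0.06 and 0.01).

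Of the genes that act after loading, 3 of 11 in the helicase activation list were lowest in mouse 92. The shares lowest there were 35.1% of all tested genes and 23.1% of the genes of like level. The widest genes of the helicase activation list were Ticrr, which brings CDC45 to the helicase (7.90, 7.75 and 8.29 in mice 92, 103 and 106), and the GINS genes Gins2 (8.36, 8.74 and 8.53) and Gins1 (8.41, 8.11 and 8.08). Of the polymerase and priming genes, 4 of 12 were lowest in mouse 92, against the same shares. Among these were the polymerase alpha subunit gene Pola2 (9.05, 9.32 and 9.45) and the polymerase delta catalytic gene Pold1 (8.42, 8.82 and 8.80). The catalytic gene of polymerase alpha, Pola1, was at 9.29, 8.95 and 9.42, lowest in mouse 103.

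Among the 16 clamp loaders and partners of PCNA, 6 were lowest in mouse 92 and 7 highest there. Of all tested genes, 35.1% were lowest and 37.4% highest in that mouse. Of the genes of like level, 23.1% were lowest and 51.1% highest there. Pclaf, whose product binds PCNA, had the order of Pcna, at 11.02, 10.69 and 10.56 in mice 92, 103 and 106. That order held under the 3 other normalisations. The DNA ligase gene Lig1 ran the other way (9.74, 9.88 and 10.15), and the clamp loader gene Rfc3 was at 9.05, 8.70 and 9.10. In the fork protection list Rpa3, a subunit of the single-strand binding protein, was at 8.31, 7.76 and 7.72 (unadjusted p = 0.0342, adjusted p = 0.922, limma), Clspn at 8.61, 8.53 and 8.95, and Timeless at 8.17, 8.28 and 8.52.

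Genes of the E2F list and the mitotic list were often highest in mouse 106, where 23.5% of all tested genes had their highest level. In the E2F, DP and pocket protein list, 7 of 13 genes were highest in mouse 106 and 1 lowest there, with median deviations of -0.07, -0.08 and 0.09 in mice 92, 103 and 106. E2f1, an activator of the G1 to S genes, was at 7.83, 8.16 and 8.48, a range of 1.56-fold (unadjusted p = 0.0370, adjusted p = 0.951, limma). Mcm3, Mcm5, Mcm6, Cdc6 and Cdt1 had the same order of mice as E2f1, and the other members did not. The repressor E2f8 was at 8.92, 8.63 and 9.42 (unadjusted p = 0.00998, adjusted p = 0.627, limma), lowest in mouse 103. The pocket protein gene Rbl2, a repressor of E2F targets in resting cells, was at 10.25, 9.73 and 10.08. In the G2 and mitosis list, 10 of 14 genes were highest in mouse 106 and 0 lowest there, with Mki67 at 11.05, 10.86 and 11.38, Top2a at 8.71, 8.50 and 8.97 and Cdc20 at 8.67, 9.07 and 9.01. Mki67 and Top2a were thus lowest in mouse 103, the mouse in which 0 of the 10 licensing genes were lowest.

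**Figure D5:**
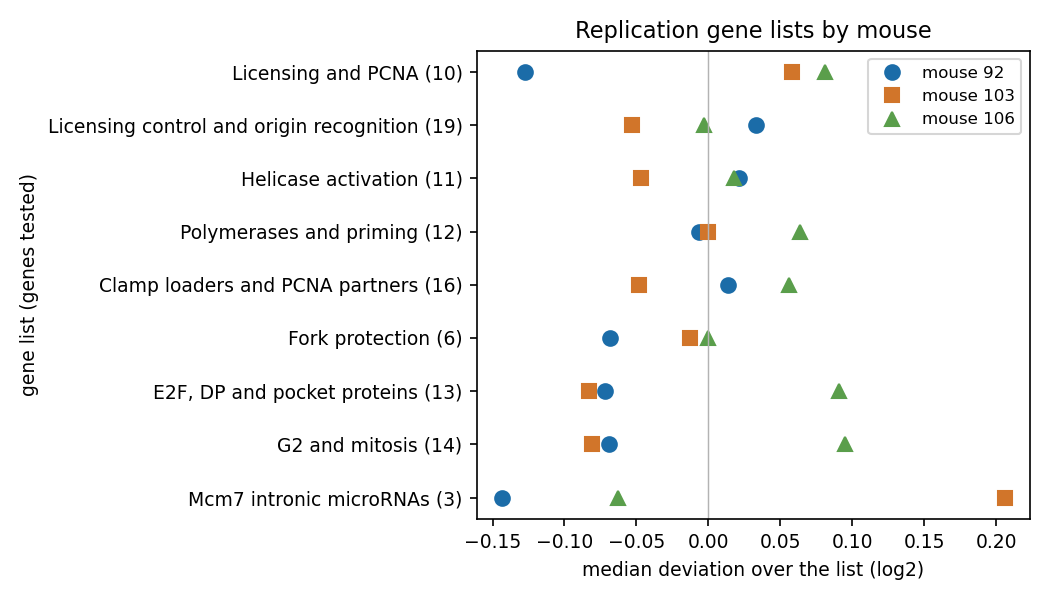
Median deviation from the gene's 3-mouse mean (log2) in mouse 92, 103 and 106, for the 10 members (top) and 8 lists of replication and cell cycle genes, with the number of genes tested in brackets. For the licensing genes and Pcna the medians were -0.13, 0.06 and 0.08; for the G2 and mitosis list they were -0.07, -0.08 and 0.09.

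Mcm7 carries the microRNA genes Mir25, Mir93 and Mir106b in its introns, and their mature products are known to damp the CDK inhibitor p21 and pro-apoptotic genes. The main strands are shown because they fall into a pair of seed families, with the seed (bases 2 to 8) in capitals, from RefSeq build GRCm38.p6.
mmu-miR-106b-5p (chr5:138165787-138165807, minus strand): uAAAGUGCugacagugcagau
mmu-miR-93-5p (chr5:138165574-138165596, minus strand): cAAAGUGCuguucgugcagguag
mmu-miR-25-3p (chr5:138165332-138165353, minus strand): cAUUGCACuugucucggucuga

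The first pair share a seed and mmu-miR-25-3p has another. Each gene had its own probe set, which can read precursor or intron as well as mature RNA. Mir93 was at 6.40, 6.93 and 6.53 in mice 92, 103 and 106, Mir25 at 7.57, 7.91 and 7.65, and Mir106b at 7.19, 7.31 and 7.19. All 3 were highest in mouse 103, where 39.1% of all tested genes had their highest level. Mcm7 was highest there too, over a small range, and a link between it and the microRNA genes was not tested. None of the 3 varied by the limma test (adjusted p = 0.996 for Mir93 and Mir25 and 0.998 for Mir106b).

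Neighbouring genes did not all take the members' order. Prkdc, the DNA-dependent kinase gene next to Mcm4, had a range of 0.24 over the mice, and Ube2v2 on the other side was at 9.20, 8.55 and 8.59 in mice 92, 103 and 106, both highest in mouse 92. Beside Cdc6, Wipf2 (8.07, 8.15 and 8.30) and Rara (8.70, 8.71 and 8.82) had its order of mice, over smaller ranges of 0.23 and 0.12 on the log2 scale. Beside Pcna, Cds2 was at 10.10, 9.87 and 10.12 and Tmem230 at 6.73, 6.78 and 6.13. Hmox1, the measured gene before Mcm5, was at 6.73, 6.91 and 6.72, and Rasd2 after it stayed below background, whereas Piezo1, the measured gene before Cdt1, was at 8.14, 8.43 and 8.57.

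The genes nearest to the members' mean deviations, by the root mean square difference over the 3 mice among 7757 other genes above background with a range of at least 0.2, were Tsacc, Tsc22d4, Spn, Dpf3 and Kcnk7, at differences of 0.003 to 0.005 on the log2 scale. Such closeness is common, as 1655 of the 7757 genes lay within 0.1. The members' mean is over genes with different orders of mice, so likeness to it says nothing about the single members.

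Markers of neutrophils, B cells, erythroid cells and macrophages were mostly lowest in mouse 92. Of 11 thymocyte genes, 9 were highest and 0 lowest there (mean level 12.05, 11.89 and 11.94 in mice 92, 103 and 106). Shares over all tested genes were 35.1% lowest and 37.4% highest in mouse 92. Over the genes within the members' level span (means of 8.31 to 12.28) they were 23.1% and 51.1%. Many of the markers lie outside that span, such as S100a8 (mean 7.66) and Rag1 (mean 13.59). The shares of that set are therefore not those of genes at the markers' levels. By the limma test 6 neutrophil genes, 1 B cell gene (Cr2) and 1 erythroid gene (Alas2) varied between mice, and 0 of the macrophage, stromal and thymocyte genes did. Elane, Mpo, Mmp8, Cr2 and Bank1 were below background in mouse 92 and were tested only because another mouse exceeded it. Their lowest place in mouse 92, and the calls of Mmp8 and Cr2, therefore follow in part from that filter. All 10 neutrophil genes tested were lowest in mouse 92, with a mean log2 level over the 11 measured of 6.08, 7.79 and 7.50 in mice 92, 103 and 106. Of the 11, 7 were above background on all arrays, and Elane, Mpo, Cxcr2 and Mmp8 were not. Ngp, a granule protein gene, was at 6.88, 9.63 and 9.61 (adjusted p = 2.36e-04, limma). All 8 B cell genes were lowest in mouse 92 (6 above background, mean level 6.64, 7.72 and 7.45; Cr2 and Bank1 not above background on every array). Erythroid genes were lowest there in 4 of 6 cases (6 of 7 measured above background, mean level 7.37, 8.04 and 7.81; Klf1 not), and macrophage and dendritic cell genes in 7 of 10 (10 of 11 above background, mean level 7.46, 8.03 and 7.65; Adgre1 not). Thymic epithelial and stromal genes were lowest there in 2 of 8 cases (7 of 10 above background, mean level 7.04, 7.25 and 7.04; Krt5, Foxn1 and Pdgfra not). The part of these cells in the members' low values in mouse 92 was not tested.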

How the data were processed

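The deposited table holds log2 levels of 35557 probe sets for 3 arrays; the log2 scale was inferred from values between 1.76 and 14.96. The authors made them with Affymetrix Expression Console, per the submitters' processing notes; no source used here gives its version, summarisation or normalisation. Array medians were 6.70, 6.71 and 6.72 for mice 92, 103 and 106.

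Probe sets with 1 symbol (21789) were averaged per gene; 1621 with several and 12147 unlisted ones were not named, and 0 carried a member's name among several. Genes above background on at least 1 array entered a limma test (version 3.58.1, R 4.3.3): an intercept fit, a trended, non-robust prior (10.4 degrees of freedom) and an upper-tail F ratio of each variance over its prior, with Benjamini-Hochberg adjustment at 0.05. Tested on simulated data with few genes shifted, it recovered most of the larger shifts but no shift of 1 on the log2 scale. A shift of that size exceeds the range of every member (at most 0.54, for Mcm5). The test recovered none at all in a first simulation with more shifted genes, after which the simulated set was made smaller. A gene it does not call may still vary. Nothing says how the samples were taken beyond the mouse numbers, so the p-values reflect only these 3 samples. They set a gene's spread over the samples against that usual at its level, and this spread may be technical. The number of samples limits precision.

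Members, gene lists and tests were chosen with earlier results of these data known. Named genes are the members, the 3 widest genes of each pathway list, the 3 highest thymocyte markers and the 5 nearest profiles. Of the other cell types, Ngp and the markers not above background on every array are named, but not the other highest markers. Only some of the neighbours are given. Gmnn, Dtl, Orc6, Kat7, Alas2, Cr2 and the sex-linked genes were picked after their values were seen. Of 168 listed symbols, 162 were measured. Protein sequences were not used here. RefSeq (GRCm38.p6) gave promoters, microRNAs and gene order.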

Additional observations from a re-analysis of the deposited data

How the results depend on the processing

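The 10 members were above background, and 0 of them varied by limma, with quantile normalisation, median centring, cyclic loess, the 99th percentile as background, the highest probe set of each gene and each mouse left out. With 3 other priors and with no filter on low levels, which leave the levels as they were, 0 members varied. Over all of these settings the smallest adjusted p of a member by limma ran from 0.783 (without mouse 103) to 0.998 (without mouse 92). The count of all genes varying, 30 in the main setting, was 18 after quantile normalisation, 18 after cyclic loess, 19 with the 99th percentile, 48 to 84 with a mouse left out and 0 with a robust prior and per-gene degrees of freedom (600 at an unadjusted p under 0.05, limma). With quantile values, and equally with cyclic loess, 1 member was highest in mouse 92, 5 in mouse 103 and 4 in mouse 106. In both settings 1 member was lowest in mouse 106. Mcm4 changed place, and Mcm3 was highest in mouse 103 instead of mouse 106. Members with a range of at least 0.5 numbered 1 after median centring and 0 to 2 with a mouse left out. The mean deviation of the members in mouse 92 stayed between -0.18 and -0.09; in mouse 103 it was -0.01 without mouse 92. Of 70 recomputed ranges of single members, 12 moved by more than the SD between mice, as did 12 of 144 list medians. Settings without Pcna, for Mcm2 to Mcm7 alone, for ORC and Pclaf and for the lowest mouse were added after seeing the data. No paired analysis was possible because the labels give 1 group. An RNA integrity number of 3, if the label holds, and 3 arrays limit every value.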
